A study of Mus musculus with 24 samples.

Results

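Brown adipose tissue of wild-type mouse neonates (WT BAT, 3 libraries) was compared with control C2C12 cells at day 7 (ctrl C2C12 day 7, 3 libraries). These cells had received no forskolin, which other C2C12 cells of the series received. These 6 libraries, chosen by their titles, are part of a series of 24 in which the transcription factor NFIA was expressed in C2C12 cells or removed from brown fat. C2C12 is a mouse myoblast line, so all control libraries come from 1 cell line, and the labels give it no genotype. The labels do not say which fat depot was taken, how many neonates went into a library, what the control cells carry, or in which medium they spent the days before sampling. They also do not say whether the 3 libraries of a group are separate cultures or animals, so the p-values below measure the spread between libraries, which may be technical. Of 21036 protein-coding genes in the tables, 12273 had at least 1 FPKM in at least 3 of the 6 libraries and were tested.

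Brown fat is the tissue in which newborn mice make heat: its adipocytes hold many lipid droplets and mitochondria, and UCP1 lets protons leak across the inner mitochondrial membrane so that fuel oxidation is released as warmth. Skeletal muscle and brown adipocytes share embryonic precursors. The muscle lineage is set by the basic helix-loop-helix factors MYOD1, MYF5 and myogenin, and the brown fat lineage by PPARG working with factors such as PRDM16, EBF2, C/EBP proteins and NFIA. Differentiating myoblasts fuse into myotubes that build sarcomeres and calcium stores.

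The tissue and the cells carried the genes that define them. All 15 markers of mature skeletal muscle were far lower in WT BAT, where they summed to 74.2 to 147 FPKM, against 26596 to 27736 FPKM in ctrl C2C12 day 7. The control sums lay mostly in Mylpf, a myosin light chain gene, at 21288 to 22207 FPKM. The titles call the cells myoblasts, although at day 7 they expressed myogenin, myomaker and fast troponins at the levels given below. Correlations of log2(FPKM + 1) over the tested genes lay between 0.971 and 0.985 within WT BAT, between 0.989 and 0.995 within ctrl C2C12 day 7, and between 0.567 and 0.596 across the groups, which is a description over genes that share each library. FPKM tables carry no read totals, and the depth of each library is unknown. The column headers give 2 run dates, of which all WT BAT libraries and ctrl C2C12 day 7 replicate 1 carry the earlier.

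Differences below are WT BAT minus ctrl C2C12 day 7 in log2(FPKM + 1), with 3 libraries a group. The value after ± is the moderated standard error of limma, which also draws on the spread of the other tested genes. Adding 1 understates the change of low genes. Calls were made below an adjusted p of 0.05 (limma, Benjamini-Hochberg over all tested genes). Of the 12273 genes, 9377 were called (76.4%), 4145 of them higher in WT BAT (33.8%) and 5232 lower (42.6%). The call alone is therefore the common case, and a change of at least 4-fold on this scale, which was called higher for 1112 genes (9.06%) and lower for 1365 (11.1%), is given beside it for the gene lists. The 3 values of a group lay outside the range of the other group for 9773 genes (79.6%). The median difference over all tested genes was -0.14, and it was 0.02 after quantile normalization, which gave 4803 higher and 4689 lower calls, and 0.04 after median-of-ratios rescaling, which gave 4826 higher and 4637 lower calls. In bulk RNA, fewer cells of a type and less RNA per cell cannot be told apart. In the lists below, exceptions to the general direction, and some further genes, were named after their values had been seen. Called list members named by rule were picked only among genes with no overlap between the groups. Their lack of overlap therefore follows from that choice.

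The brown adipocyte and thermogenic list stood high in WT BAT. Of its 25 tested members 22 were called higher, 21 of them by at least 4-fold, with a median difference of 4.56. Ucp1 had 7239.6, 4753 and 4073 FPKM in WT BAT replicates 1 to 3 and was listed at 0 in all 3 ctrl C2C12 day 7 libraries (adjusted p = 2.3e-09). Ucp1 had the largest positive difference of all tested genes, and its groups did not overlap. Cidea, a lipid droplet protein typical of brown fat, had 2138, 2251 and 1973 FPKM in WT BAT, against 0.15, 0.10 and 0.17 FPKM in ctrl C2C12 day 7 (difference 10.86 ± 0.11, adjusted p = 1.4e-10). Cpt1b, the muscle-type enzyme that loads long-chain fatty acids for import into mitochondria, had 1077, 909.9 and 964.6 FPKM in WT BAT, against 0.92, 1.36 and 1.92 FPKM in ctrl C2C12 day 7 (8.70 ± 0.17, adjusted p = 5.7e-09). The library values of both genes were separated by a wide gap.

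Other members of the list have roles in heat production and its control. Ppargc1a, the coactivator that drives mitochondrial biogenesis, had 18.4, 27.8 and 10.8 FPKM in WT BAT, against 0.64, 0.49 and 0.79 FPKM in ctrl C2C12 day 7 (3.52 ± 0.29, adjusted p = 7.2e-06). Otop1, a proton channel, had 113.5, 46.3 and 95.3 FPKM in WT BAT, against 0.02, 0.01 and 0 FPKM in ctrl C2C12 day 7 (6.32 ± 0.29, adjusted p = 2.6e-07). Clstn3 had 255.1, 70.4 and 103.3 FPKM in WT BAT, against 0.35, 0.68 and 0.41 FPKM in ctrl C2C12 day 7 (6.40 ± 0.40, adjusted p = 1.5e-06). S100b, which encodes a calcium-binding protein, had 23.3, 24.8 and 12.4 FPKM in WT BAT, against 0.06, 0.05 and 0.10 FPKM in ctrl C2C12 day 7 (4.25 ± 0.24, adjusted p = 7.1e-07). Otop1, Clstn3 and S100b were picked only among genes without overlap between the groups, and Ppargc1a, a fixed gene, had none either. S100b is also on the nerve and glia marker list.

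Among the thermogenic genes, 3 tested members were not called higher. Dio2, the deiodinase that makes active thyroid hormone, had 21.7, 36.7 and 4.60 FPKM in WT BAT, against 13.99, 12.4 and 12.9 FPKM in ctrl C2C12 day 7 (0.26 ± 0.59, adjusted p = 0.70). The 3 WT BAT values fell on both sides of the cells, and without WT BAT replicate 3 the difference was 1.06 with an adjusted p of 0.0037. Acot11, an acyl-CoA thioesterase, also overlapped (0.11 ± 0.36, adjusted p = 0.80). Zfp516, a zinc finger factor that activates Ucp1, was lower in WT BAT, with 3.58, 3.10 and 2.74 FPKM, against 9.03, 9.51 and 8.63 FPKM in ctrl C2C12 day 7 (-1.28 ± 0.13, adjusted p = 2.2e-05). Gmpr was called higher at 263.1, 541.2 and 25.4 FPKM in WT BAT, against 16.1, 20.2 and 22.3 FPKM in ctrl C2C12 day 7, but the call was lost without WT BAT replicate 1 (adjusted p = 0.078), without WT BAT replicate 2 (0.055) or without ctrl C2C12 day 7 replicate 1 (0.075), and in the earlier run alone (0.18).

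The sequence just before the start of Ucp1 is shown because Ucp1 leads the comparison. It covers 150 bases of RefSeq build GRCm38.p6, chr8:83290198-83290347, plus strand, with the AGGTCA element of nuclear receptors in capitals. That element, on either strand, is present in the 250 bases before the start in 15.8% of the 27025 genes with a promoter in the table. A match to these letters is a description of the window only.
Ucp1: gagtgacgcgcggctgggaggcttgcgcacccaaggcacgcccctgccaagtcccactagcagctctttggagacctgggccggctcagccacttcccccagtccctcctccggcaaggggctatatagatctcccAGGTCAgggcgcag

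**Figure D1:**
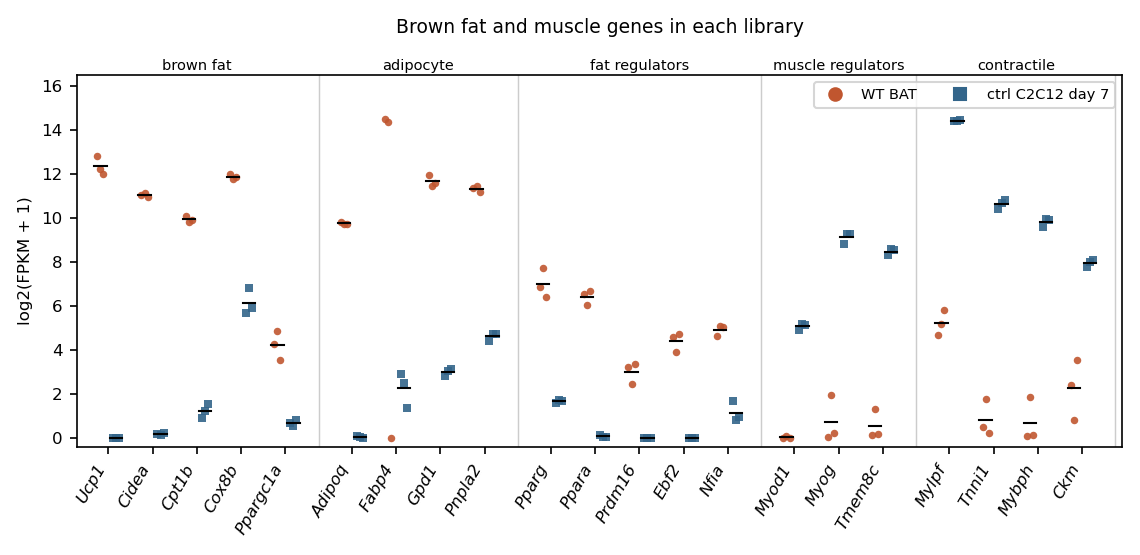
Each point is 1 library, in log2(FPKM + 1), with WT BAT (circles) left of ctrl C2C12 day 7 (squares) and a bar at the group mean, except for Fabp4 in WT BAT. Ucp1 reaches 7239.6 FPKM in WT BAT and is at 0 in the cells, while Mylpf, at 25.02 to 55.7 FPKM in WT BAT, reaches 22207 FPKM in the cells.

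General adipocyte genes were higher as a group. Of 27 tested members 25 were called higher, each by at least 4-fold, with a median difference of 6.69, and none was called lower. Gpihbp1, which anchors lipoprotein lipase to capillary walls, is counted among them. Adipoq, which encodes the hormone adiponectin, had 894.3, 842.5 and 858.7 FPKM in WT BAT, against 0.07, 0.03 and 0 FPKM in ctrl C2C12 day 7 (9.71 ± 0.11, adjusted p = 1.7e-10). Gpd1, which makes the glycerol backbone of triglycerides, had 3923, 2821 and 3048 FPKM in WT BAT, against 6.20, 7.43 and 7.83 FPKM in ctrl C2C12 day 7 (8.64 ± 0.16, adjusted p = 4.8e-09). Cfd, the secreted protease adipsin, had 489.3, 453.1 and 1009.6 FPKM in WT BAT, against 0, 0.05 and 0 FPKM in ctrl C2C12 day 7 (9.22 ± 0.28, adjusted p = 3.0e-08). Adipoq and Cfd were close to or at 0 in the cells.

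The 2 members of the list that were not called each had 1 WT BAT library far below the others. Fabp4, the fatty acid binding protein of adipocytes, had 23064 and 21229.7 FPKM in WT BAT replicates 1 and 2 and was listed at 0 in replicate 3, against 6.54, 4.79 and 1.57 FPKM in ctrl C2C12 day 7. In WT BAT replicate 3 Adipoq had 858.7 FPKM and Cfd 1009.6 FPKM. A listed 0 can be a failed estimate, which was not tested. With that 0 taken as a value the adjusted p was 0.078, and with it set to missing the difference was 12.16 with an adjusted p of 1.7e-07, from 2 WT BAT libraries; it was also called with all 24 libraries in the fit (adjusted p = 0.0047). G0s2, an inhibitor of the lipase ATGL, had 322.2, 38.2 and 737.2 FPKM in WT BAT, against 37.6, 54.9 and 57.7 FPKM in ctrl C2C12 day 7 (2.07 ± 0.90, adjusted p = 0.064). Without WT BAT replicate 2 the G0s2 difference was 3.28 (adjusted p = 9.3e-05). Lep, the leptin gene, was below the expression filter in all 6 libraries and was not tested.

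Lipid droplet and lipolysis genes followed. Pnpla2, which encodes the triglyceride lipase ATGL, had 2624, 2819 and 2310.2 FPKM in WT BAT, against 20.7, 25.8 and 25.7 FPKM in ctrl C2C12 day 7 (6.69 ± 0.14, adjusted p = 8.9e-09). Plin1, the droplet coat protein that gates lipolysis, had 487.1, 109.9 and 667.0 FPKM in WT BAT, against 0.05, 0.04 and 0 FPKM in ctrl C2C12 day 7 (8.33 ± 0.57, adjusted p = 2.4e-06). Lipe, the hormone-sensitive lipase, had 607.9, 383.6 and 513.4 FPKM in WT BAT, against 1.87, 2.22 and 1.74 FPKM in ctrl C2C12 day 7 (7.39 ± 0.18, adjusted p = 1.2e-08). In the lipolysis and adrenergic list of 20 tested entries, 16 were higher, 14 of them by at least 4-fold, 2 were lower, and the median was 2.53.

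The receptor and kinase genes of that list did not all move together. Adra1a, an alpha-adrenergic receptor, had 19.5, 9.06 and 17.6 FPKM in WT BAT and was listed at 0 in all ctrl C2C12 day 7 libraries. Adrb3, the main beta-adrenergic receptor of adipocytes, had 3.07, 0.85 and 2.09 FPKM in WT BAT, against 0.02, 0 and 0 FPKM in ctrl C2C12 day 7, and did not pass the filter. The regulatory subunits of protein kinase A went opposite ways: Prkar2b had 574.9, 357.4 and 594.4 FPKM in WT BAT, against 25.8, 26.4 and 24.9 FPKM in ctrl C2C12 day 7 (4.22 ± 0.20), and Prkar1a had 121.7, 116.6 and 110.2 FPKM in WT BAT, against 461.2, 485.6 and 484.6 FPKM in ctrl C2C12 day 7 (-2.03 ± 0.12). Both were called, at adjusted p = 2.6e-07 for Prkar2b and 8.1e-07 for Prkar1a.

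Of the 27 tested transcription factors of the adipogenic and brown lineage list, 20 were called higher, 13 of them by at least 4-fold, and 5 lower, with a median difference of 1.86. Pparg, the master regulator of adipocyte differentiation, had 115.6, 208.2 and 84.4 FPKM in WT BAT, against 2.05, 2.37 and 2.25 FPKM in ctrl C2C12 day 7 (5.31 ± 0.29, adjusted p = 6.0e-07). Ppara, its relative that controls fatty acid oxidation genes, had 91.8, 64.3 and 102.8 FPKM in WT BAT, against 0.11, 0.05 and 0.06 FPKM in ctrl C2C12 day 7 (6.32 ± 0.18, adjusted p = 2.3e-08). Rxrg, an RXR partner of both receptors, had 54.8, 32.1 and 51.4 FPKM in WT BAT, against 0.16, 0.14 and 0.19 FPKM in ctrl C2C12 day 7 (5.30 ± 0.20, adjusted p = 7.7e-08). Ppara and Rxrg were picked only among genes without overlap between the groups, and Pparg, a fixed gene, had none either.

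Several brown lineage factors were listed at 0 in the cells. Prdm16, a brown fat determination factor, had 8.54, 4.49 and 9.44 FPKM in WT BAT and was listed at 0 in all 3 ctrl C2C12 day 7 libraries (adjusted p = 3.9e-06). Ebf2 had 23.1, 14.1 and 25.6 FPKM in WT BAT and was listed at 0 in ctrl C2C12 day 7 (adjusted p = 2.6e-07), and Zbtb16 had 9.33, 31.1 and 17.6 FPKM in WT BAT and was listed at 0 there too (adjusted p = 7.6e-06). Other calls were fragile: Zic1, often used as a brown fat marker, had 11.9, 10.5 and 9.92 FPKM in WT BAT, against 9.33, 7.40 and 5.20 FPKM in ctrl C2C12 day 7 (0.53 ± 0.19, adjusted p = 0.033), and lost its call without WT BAT replicate 1 (0.11), without WT BAT replicate 2 (0.054) and without ctrl C2C12 day 7 replicate 2 (0.068) or 3 (0.12). In the earlier run alone the Zic1 difference was 0.19 (adjusted p = 0.48). Cebpb and Ebf1, both called higher, lost their calls without WT BAT replicate 1 (adjusted p = 0.071 and 0.076) or WT BAT replicate 3 (0.06 and 0.066). Tbx15 was lower in WT BAT, with 3.01, 5.47 and 3.68 FPKM, against 55.5, 54.0 and 53.2 FPKM in ctrl C2C12 day 7 (-3.48 ± 0.18, adjusted p = 4.4e-07).

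The nuclear factor I family, to which NFIA belongs, was split. Nfia had 24.3, 32.8 and 32.6 FPKM in WT BAT, against 2.23, 0.81 and 0.94 FPKM in ctrl C2C12 day 7 (3.77 ± 0.23, adjusted p = 1.4e-06). Nfib had 18.7, 18.4 and 14.6 FPKM in WT BAT, against 7.97, 4.97 and 4.02 FPKM in ctrl C2C12 day 7 (1.49 ± 0.22, adjusted p = 2.9e-04). Nfic had 23.8, 13.1 and 23.6 FPKM in WT BAT, against 59.1, 57.4 and 49.3 FPKM in ctrl C2C12 day 7 (-1.46 ± 0.22, adjusted p = 3.6e-04). Nfix had 31.2, 21.01 and 26.3 FPKM in WT BAT, against 48.8, 45.1 and 41.2 FPKM in ctrl C2C12 day 7 (-0.78 ± 0.16, adjusted p = 0.0021). Nfia and Nfib were higher in the tissue and Nfic and Nfix lower, with no overlap between the groups.

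Fuel oxidation genes rose nearly as whole pathways. All 23 citric acid cycle genes were called higher, 19 of them by at least 4-fold, with a median difference of 2.98. Of 28 fatty acid oxidation genes 27 were higher, 25 of them by at least 4-fold, with a median of 4.14. Idh3a, a subunit of the NAD-dependent isocitrate dehydrogenase, had 1610.2, 1415 and 1386 FPKM in WT BAT, against 57.3, 62.0 and 68.5 FPKM in ctrl C2C12 day 7 (4.53 ± 0.13, adjusted p = 2.6e-08). Ehhadh, the bifunctional enzyme of peroxisomal beta-oxidation, had 214.2, 179.8 and 188.3 FPKM in WT BAT, against 0.14, 0.14 and 0.08 FPKM in ctrl C2C12 day 7 (7.44 ± 0.12, adjusted p = 2.2e-09). Slc25a20, which carries acylcarnitines across the inner membrane, had 684.7, 451.5 and 674.3 FPKM in WT BAT, against 12.97, 13.8 and 12.6 FPKM in ctrl C2C12 day 7 (5.40 ± 0.17, adjusted p = 4.0e-08). The gap between the groups was wider than either group's spread for all 3 genes.

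Genes for the breakdown of ketone bodies and branched-chain amino acids were higher in 18 of 19 tested members, 11 of them by at least 4-fold, with a median of 2.54. Bckdhb, a subunit of the branched-chain keto acid dehydrogenase, had 297.5, 322.3 and 235.0 FPKM in WT BAT, against 2.26, 3.21 and 2.55 FPKM in ctrl C2C12 day 7 (6.28 ± 0.16, adjusted p = 1.5e-08). The exception was Oxct1, the enzyme that activates acetoacetate for oxidation outside the liver, with 58.7, 66.1 and 39.8 FPKM in WT BAT, against 133.6, 117.9 and 118.4 FPKM in ctrl C2C12 day 7 (-1.18 ± 0.19, adjusted p = 4.7e-04). Lipogenesis was mixed, with 14 of 20 members higher, 10 of them by at least 4-fold, 2 lower, 1 of them by at least 4-fold, and 4 not called. Among the higher members, Fasn lost its call without WT BAT replicate 1 (0.46, adjusted p = 0.1) or replicate 2 (0.40, adjusted p = 0.083). Acss2 lost its call without WT BAT replicate 1 (0.30, adjusted p = 0.099) or replicate 3 (0.31, adjusted p = 0.068). Thrsp, a gene that responds to thyroid hormone, had 568.4, 483.7 and 515.7 FPKM in WT BAT, against 0, 0.03 and 0 FPKM in ctrl C2C12 day 7 (9.01 ± 0.11, adjusted p = 4.8e-10).

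Within lipogenesis the carboxylases and desaturases differed from each other. Acacb, whose product makes the malonyl-CoA that restrains fatty acid import into mitochondria, had 129.6, 126.0 and 134.0 FPKM in WT BAT, against 0.43, 0.58 and 0.24 FPKM in ctrl C2C12 day 7 (6.54 ± 0.13, adjusted p = 6.2e-09). Acaca, the cytosolic carboxylase of fatty acid synthesis, had 6.95, 8.18 and 3.84 FPKM in WT BAT, against 22.6, 13.4 and 24.3 FPKM in ctrl C2C12 day 7 (-1.54 ± 0.29, adjusted p = 0.0012). Scd2, a stearoyl-CoA desaturase, had 7.42, 22.04 and 4 FPKM in WT BAT, against 354.7, 355.1 and 345.8 FPKM in ctrl C2C12 day 7 (-5.16 ± 0.47, adjusted p = 1.3e-05). Scd1 had 413.5, 698.2 and 100.8 FPKM in WT BAT, against 147.8, 124.6 and 118.7 FPKM in ctrl C2C12 day 7 and was not called (1.24 ± 0.60, adjusted p = 0.088). Its WT BAT values lay on both sides of the cells, and without WT BAT replicate 3 its difference was 2.04 (adjusted p = 2.2e-04).

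Nuclear genes of oxidative phosphorylation were higher in 71 of 75 members, 37 of them by at least 4-fold, with a median of 1.93. Summed over the list, FPKM reached 88875, 86747 and 81768 in WT BAT replicates 1 to 3, against 15346, 21882 and 22561 in ctrl C2C12 day 7 replicates 1 to 3. The lowest control library was replicate 1, the only one that shares a run date with the tissue. In the libraries of the earlier run alone, 71 members were called higher. Complexes were assigned by gene symbol, and all Nduf genes, Ndufa4 included, were counted as complex I. By complex, the median difference was 1.77 for the 36 Nduf genes, 2.74 for 4 genes of complex II, 2.44 for 9 of complex III, 2.57 for 10 of complex IV and 1.71 for 15 of ATP synthase. Every gene of complexes I to IV on this list was called higher. The list leaves out the isoforms Cox6a2, Cox7a1 and Cox8b, which are given below, and of these Cox6a2 was lower. Cytochrome c, Cycs, had a difference of 3.18.

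The subunits given next had the largest difference of the list, for Cox7b, and of complex III, for Uqcrc1. The list median was 1.93. Cox7b, a subunit of cytochrome oxidase, had 8359, 7062 and 7667 FPKM in WT BAT, against 344.5, 679.5 and 647.6 FPKM in ctrl C2C12 day 7 (3.85 ± 0.27, adjusted p = 2.5e-06). Uqcrc1, a core subunit of complex III, had 1207, 1186 and 905.5 FPKM in WT BAT, against 80.0, 98.7 and 99.8 FPKM in ctrl C2C12 day 7 (3.55 ± 0.16, adjusted p = 2.5e-07). The 4 members called lower all belong to ATP synthase, and 3 of them, Atp5g1, Atp5g2 and Atp5g3, encode its proton-carrying c subunit.

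The c-subunit genes differed in size of change. Atp5g1 had 12.8, 11.7 and 13.8 FPKM in WT BAT, against 67.3, 105.1 and 101.9 FPKM in ctrl C2C12 day 7 (-2.72 ± 0.18, adjusted p = 2.1e-06). Atp5g2 had 75.01, 76.8 and 75.3 FPKM in WT BAT, against 111.4, 165.0 and 172.7 FPKM in ctrl C2C12 day 7 (-0.95 ± 0.17, adjusted p = 0.0011). Atp5g3 had 453.3, 353.6 and 425.8 FPKM in WT BAT, against 622.9, 780.5 and 829.3 FPKM in ctrl C2C12 day 7 (-0.85 ± 0.17, adjusted p = 0.0016). In the earlier run alone the call of Atp5g3 was lost (-0.61, adjusted p = 0.052). The fourth gene, Atp5j, was called at -1 ± 0.31 (adjusted p = 0.018), a call lost in the earlier run alone (-0.18, adjusted p = 0.37) and without WT BAT replicate 1 (0.053), WT BAT replicate 2 (0.052), ctrl C2C12 day 7 replicate 2 (0.063) or ctrl C2C12 day 7 replicate 3 (0.063).

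Promoters of these genes are shown because 71 of the 75 were called higher. GCGCA and GCGC with 1 base of any kind between them, the core of the motif of NRF1, a regulator of respiratory chain genes, was searched on both strands in the 250 bases before the start. It was present for 13 of the 62 oxidative phosphorylation genes with a promoter in the table (21%), against 4.23% of all 27025 genes. None of the 31 matched sarcomere genes held it. It was in 15% of the 20 citric acid cycle genes and 12.5% of the 16 ketone and branched-chain amino acid genes. It was also in 12.5% of the 24 glycolysis genes, a list with a median difference of -0.40. Atp5g2, called lower in WT BAT, held it too, whereas the genes printed below were all called higher. A match does not show that a factor binds. The lines below give the 150 bases before the start in GRCm38.p6, from RefSeq, with that core in capitals: Sdha, a subunit of complex II, at chr13:74350241-74350390 on the minus strand, Ndufb4, a subunit of complex I, at chr16:37654369-37654518 on the minus strand, and Cox6a1, a subunit of complex IV, at chr5:115348959-115349108 on the minus strand.
Sdha: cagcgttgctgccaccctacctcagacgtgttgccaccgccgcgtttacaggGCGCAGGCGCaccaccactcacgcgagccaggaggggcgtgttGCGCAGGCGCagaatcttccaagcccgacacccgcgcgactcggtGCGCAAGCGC
Ndufb4: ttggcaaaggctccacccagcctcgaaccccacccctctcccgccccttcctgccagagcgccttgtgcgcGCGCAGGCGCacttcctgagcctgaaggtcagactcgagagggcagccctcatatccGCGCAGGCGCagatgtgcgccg
Cox6a1: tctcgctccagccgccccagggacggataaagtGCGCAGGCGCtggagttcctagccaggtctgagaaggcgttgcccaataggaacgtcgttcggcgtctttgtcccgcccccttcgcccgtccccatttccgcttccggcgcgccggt

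The mRNAs encoded by mitochondrial DNA could not be compared in the same way. Of the 13, only mt-Nd3 was above 0 in all 6 libraries, with 13648, 10402.6 and 12452 FPKM in WT BAT, against 1054, 1275 and 1185 FPKM in ctrl C2C12 day 7 (3.37 ± 0.18, adjusted p = 5.7e-07). Whether these mt-Nd3 values are sound was not tested, so its difference is uncertain too. The other 12 were listed at 0 in all 3 WT BAT libraries. In ctrl C2C12 day 7 the same genes lay between 1649 FPKM, for mt-Nd5 in replicate 3, and 18084 FPKM, for mt-Atp8 in replicate 2, apart from mt-Co1, which was listed at 0 in replicate 1. Every cell with mitochondria uses these mRNAs, and a value of 0 in these tables can be a failed estimate, so no fold is given for these 12. The limma fit called 11 of them lower, and without all mitochondrially encoded genes 9362 genes were called.

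**Figure D2:**
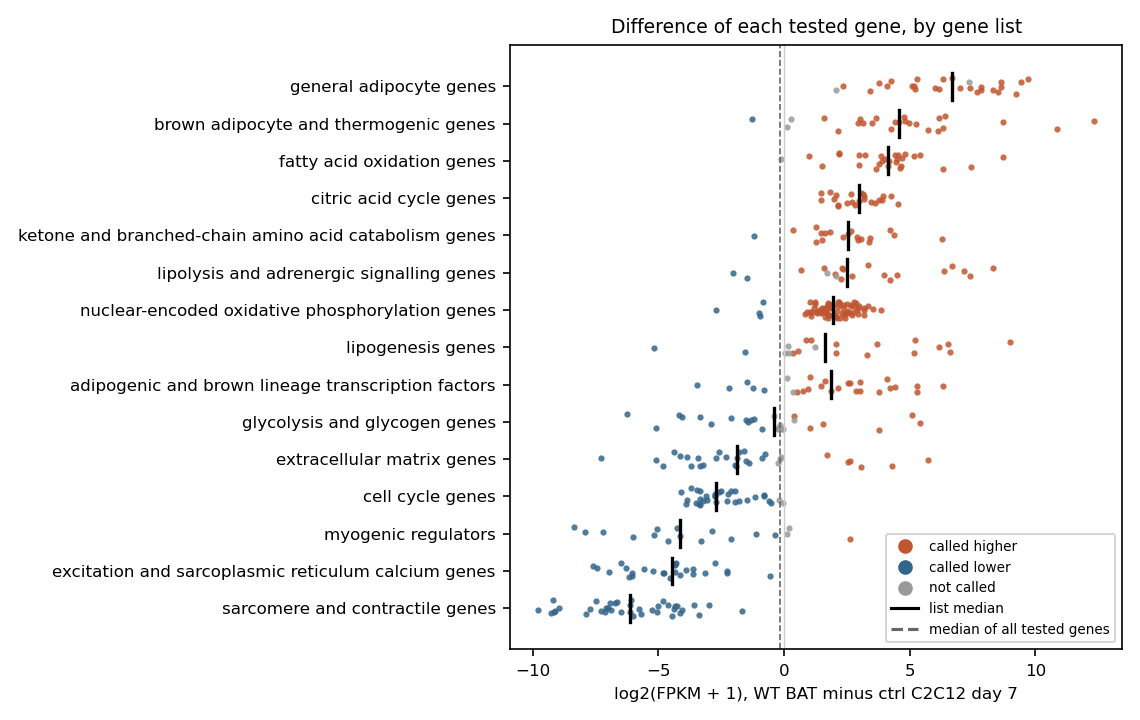
Each point is a tested gene of 1 list, placed by its difference in log2(FPKM + 1), WT BAT minus ctrl C2C12 day 7; short black lines mark list medians and the dashed line the median of all tested genes at -0.14. Medians of the 15 lists plotted, which leave out the marker, HOX, isoform and mitochondrially encoded lists, run from 6.69 for general adipocyte genes to -6.14 for sarcomere genes.

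Isoforms of the same enzyme moved apart in many families. For cytochrome oxidase subunit VIa, the liver-type Cox6a1 had 2379, 2249.6 and 2230.5 FPKM in WT BAT, against 235.7, 412.7 and 412.7 FPKM in ctrl C2C12 day 7 (2.73 ± 0.23, adjusted p = 8.0e-06). The heart and muscle-type Cox6a2 had 0.47, 0.44 and 1.44 FPKM in WT BAT, against 71.2, 114.3 and 120.0 FPKM in ctrl C2C12 day 7 (-5.86 ± 0.26, adjusted p = 2.2e-07). The muscle-type isoforms of subunits VIIa and VIII did the opposite of Cox6a2. Cox7a1 had 2398, 2384 and 1822 FPKM in WT BAT, against 44.6, 73.8 and 93.7 FPKM in ctrl C2C12 day 7 (4.99 ± 0.26, adjusted p = 5.2e-07), and Cox8b had 4128, 3502 and 3697 FPKM in WT BAT, against 50.5, 111.1 and 60.2 FPKM in ctrl C2C12 day 7 (5.74 ± 0.27, adjusted p = 2.8e-07). Their broadly expressed partners were also higher, Cox7a2 by 1.82 ± 0.19 (adjusted p = 3.6e-05) and Cox8a by 1.63 ± 0.28 (adjusted p = 7.9e-04), and the contrast between partners was not tested.

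Carnitine palmitoyltransferase showed a similar split. Cpt1b was far higher in WT BAT, as given above. Cpt1a, the liver-type enzyme, had 16.7, 7.31 and 13.04 FPKM in WT BAT, against 13.7, 12.4 and 12.9 FPKM in ctrl C2C12 day 7 and was not called (-0.13 ± 0.25, adjusted p = 0.64). The uncoupling protein relatives Ucp2, at 686.7, 296.1 and 624.1 FPKM in WT BAT, against 58.7, 58.4 and 57.6 FPKM in ctrl C2C12 day 7 (3.09 ± 0.29, adjusted p = 1.7e-05), and Ucp3, at 46.2, 5.59 and 14.5 FPKM in WT BAT, against 1.06, 1.40 and 1.28 FPKM in ctrl C2C12 day 7 (2.91 ± 0.59, adjusted p = 0.0019), were both higher. The Ucp3 call was lost in the earlier run alone (3.03, adjusted p = 0.07).

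In glycolysis the muscle isoforms of 4 enzymes were low in WT BAT, and their partner isoforms were higher, lower or not called. Over the list of 25 tested genes, 6 were higher, 3 of them by at least 4-fold, 12 were lower, 7 of them by at least 4-fold, and 7 were not called, with a median of -0.40. Eno3, the muscle enolase, had 10.6, 10.9 and 13.7 FPKM in WT BAT, against 956.3, 933.5 and 1033.8 FPKM in ctrl C2C12 day 7 (-6.26 ± 0.13, adjusted p = 8.5e-09). Eno1 had 385.4, 318.7 and 244.1 FPKM in WT BAT, against 337.8, 369.0 and 400.4 FPKM in ctrl C2C12 day 7 (-0.24 ± 0.18, adjusted p = 0.25). The same held for phosphoglycerate mutase, with Pgam2 at 3.19, 2.87 and 3.7 FPKM in WT BAT, against 124.9, 153.4 and 151.2 FPKM in ctrl C2C12 day 7 (-5.08 ± 0.14, adjusted p = 1.8e-08). Pgam1 was not called (-0.24 ± 0.14, adjusted p = 0.15), although after quantile normalization it was (-0.30, adjusted p = 0.024). Phosphofructokinase gave -4.19 ± 0.13 for the muscle gene Pfkm (adjusted p = 3.0e-08) and -0.07 ± 0.19 for the liver gene Pfkl (adjusted p = 0.76), and glycogen phosphorylase gave -4.04 ± 0.23 for the muscle gene Pygm (adjusted p = 8.8e-07) and 0.39 ± 0.22 for Pygb (adjusted p = 0.14). Pygb passed without WT BAT replicate 2 (0.64, adjusted p = 0.0063). The other partners were called, the platelet phosphofructokinase Pfkp lower (-1.30 ± 0.19, adjusted p = 2.5e-04) and the liver phosphorylase Pygl higher (3.78 ± 0.20, adjusted p = 5.7e-07).

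Glucose entry, lactate and pyruvate genes also changed partners. Slc2a4, the insulin-responsive transporter GLUT4, had 118.5, 172.3 and 58.8 FPKM in WT BAT, against 1.91, 2.38 and 2.11 FPKM in ctrl C2C12 day 7 (5.10 ± 0.34, adjusted p = 1.9e-06). Slc2a1, the basal transporter GLUT1, had 4.50, 6.96 and 5.07 FPKM in WT BAT, against 54.1, 68.5 and 74.4 FPKM in ctrl C2C12 day 7 (-3.36 ± 0.18, adjusted p = 5.7e-07). Hexokinases did likewise, Hk2 with a difference of 1.56 ± 0.16 (adjusted p = 2.7e-05) and Hk1 with -2.92 ± 0.15 (adjusted p = 3.7e-07). Ldhb, the lactate dehydrogenase subunit that is abundant in oxidative tissues, had 407.2, 400.6 and 325.5 FPKM in WT BAT, against 5.73, 8.78 and 9.89 FPKM in ctrl C2C12 day 7 (5.40 ± 0.19, adjusted p = 6.5e-08). Ldha was not called (-0.40 ± 0.17, adjusted p = 0.06), but it was after quantile normalization (-0.66, adjusted p = 0.0029) and without WT BAT replicate 1 (-0.56, adjusted p = 0.019). Pdk4, the pyruvate dehydrogenase kinase that spares glucose when fat is burned, had 573.3, 700.2 and 448.9 FPKM in WT BAT, against 15, 14.4 and 15.4 FPKM in ctrl C2C12 day 7 (5.15 ± 0.17, adjusted p = 4.1e-08). Pdk2 was also higher (3 ± 0.18), Pdk3 was lower (-2.73 ± 0.17), and Pdk1 was not called (-0.24 ± 0.12, adjusted p = 0.11).

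**Figure D3:**
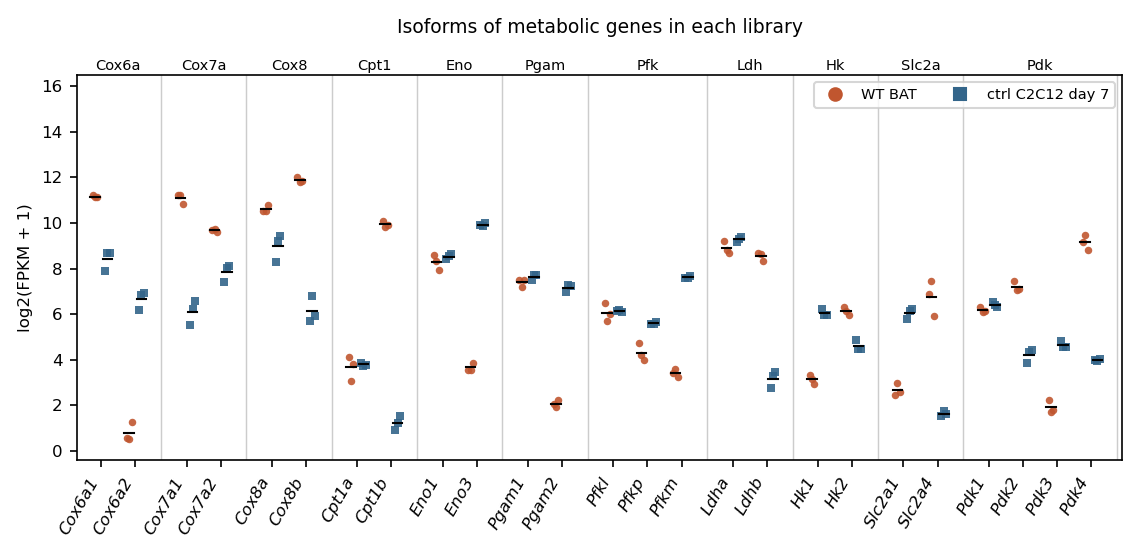
Each point is 1 library in log2(FPKM + 1), with WT BAT (circles) left of ctrl C2C12 day 7 (squares) and a bar at the group mean, for isoforms of 11 metabolic families. In the Eno, Pgam and Pfk families the muscle isoform (Eno3, Pgam2, Pfkm) drops in WT BAT while Eno1, Pgam1 and Pfkl overlap between the groups.

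Most myogenic regulators were low in WT BAT. Of 17 tested members 14 were called lower, 12 of them by at least 4-fold, with a median of -4.13. Myod1 had 0, 0.09 and 0.02 FPKM in WT BAT, against 29.3, 35.9 and 34.8 FPKM in ctrl C2C12 day 7 (-5.05 ± 0.13, adjusted p = 1.5e-08). Myog, which encodes myogenin and switches on differentiation, had 0.05, 2.90 and 0.19 FPKM in WT BAT, against 452.8, 621.6 and 621.4 FPKM in ctrl C2C12 day 7 (-8.37 ± 0.45, adjusted p = 5.7e-07). The fusion protein myomaker, listed in the tables as Tmem8c, had 0.10, 1.52 and 0.15 FPKM in WT BAT, against 314.2, 381.1 and 371.1 FPKM in ctrl C2C12 day 7 (-7.91 ± 0.30, adjusted p = 7.9e-08). For Myog and Tmem8c the highest WT BAT value came from replicate 2, and it was still far under the lowest control.

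Exceptions among the myogenic regulators were Cdkn1c, Mef2d and Chd2. Cdkn1c, the cell cycle inhibitor p57, was higher in WT BAT, with 22.2, 17.8 and 21.1 FPKM, against 2.13, 3.16 and 2.19 FPKM in ctrl C2C12 day 7 (2.62 ± 0.16, adjusted p = 1.1e-06). Mef2d had 53.2, 35.3 and 46.1 FPKM in WT BAT, against 36.7, 36.2 and 42.3 FPKM in ctrl C2C12 day 7 (0.21 ± 0.16, adjusted p = 0.28), and it was called without WT BAT replicate 2 (0.36, adjusted p = 0.037). Its relative Mef2c, a muscle-enriched MEF2 factor, was lower, with 6.14, 6.38 and 4.82 FPKM in WT BAT, against 73.6, 63.1 and 62.8 FPKM in ctrl C2C12 day 7 (-3.32 ± 0.14, adjusted p = 1.4e-07). Chd2 was not called (0.13 ± 0.16, adjusted p = 0.46).

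All 39 tested sarcomere and contractile genes were lower in WT BAT, 38 of them by at least 4-fold, and their median difference was -6.14. Mylpf, the fast regulatory myosin light chain, had 25.02, 35.5 and 55.7 FPKM in WT BAT, against 21626.5, 21288 and 22207 FPKM in ctrl C2C12 day 7 (-9.17 ± 0.26, adjusted p = 2.3e-08). Tnni1, the slow troponin I, had 0.41, 2.48 and 0.17 FPKM in WT BAT, against 1356, 1625 and 1777 FPKM in ctrl C2C12 day 7 (-9.78 ± 0.36, adjusted p = 7.6e-08). Myl4, the embryonic and atrial light chain, had 2.63, 4.06 and 2 FPKM in WT BAT, against 1862, 2414 and 2914 FPKM in ctrl C2C12 day 7 (-9.28 ± 0.23, adjusted p = 1.3e-08). For each of the 3 genes the highest WT BAT value was far under the lowest control value.

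Contractile transcripts in WT BAT were low but not all at the floor. The list summed to 207, 206 and 314 FPKM in WT BAT replicates 1 to 3, against 43763, 44730 and 47103 FPKM in ctrl C2C12 day 7. Mylpf made up a large part of the control sums. Of the 39 tested contractile genes 22 had their highest WT BAT value in replicate 3 and 11 in replicate 2, against 33% of all tested genes for each. Among those highest in replicate 3, Tnnt3, fast troponin T, had 7.77, 4.59 and 19.3 FPKM in WT BAT. Ckm, muscle creatine kinase, which is not on the list, had 4.36, 0.76 and 10.8 FPKM there. The cells had 1362, 1102 and 1088 FPKM of Tnnt3 and 218.0, 255.3 and 272.9 FPKM of Ckm, which gave differences of -6.88 ± 0.40 (adjusted p = 9.7e-07) and -5.69 ± 0.57 (adjusted p = 2.6e-05). Mybph, a myosin-binding protein with its WT BAT maximum in replicate 2, had 0.09, 2.68 and 0.10 FPKM in WT BAT, against 772.4, 976.6 and 953.1 FPKM in ctrl C2C12 day 7 (-9.09 ± 0.43, adjusted p = 2.7e-07). No tested contractile gene overlapped between the groups.

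Excitation and calcium store genes behaved alike, with all 26 tested members lower, 25 of them by at least 4-fold, and a median of -4.45. Chrng, the fetal gamma subunit of the muscle acetylcholine receptor, had 0, 0.28 and 0.04 FPKM in WT BAT, against 184.7, 225.6 and 220.5 FPKM in ctrl C2C12 day 7 (-7.58 ± 0.15, adjusted p = 5.7e-09). Chrna1, its alpha subunit, had 0.03, 0.56 and 0.09 FPKM in WT BAT, against 191.5, 221.7 and 213.4 FPKM in ctrl C2C12 day 7 (-7.44 ± 0.17, adjusted p = 1.1e-08). Atp2a1, the fast-muscle calcium pump SERCA1, had 4.93, 5.91 and 13.6 FPKM in WT BAT, against 692.1, 651.9 and 635.0 FPKM in ctrl C2C12 day 7 (-6.29 ± 0.30, adjusted p = 3.0e-07). The member under 4-fold was Atp2a2, the pump SERCA2 used by many tissues, with 62.7, 49.1 and 61.3 FPKM in WT BAT, against 90.9, 81.6 and 78.8 FPKM in ctrl C2C12 day 7 (-0.54 ± 0.14, adjusted p = 0.0065). Another pump, Atp2a3, ran the other way, with 12.3, 8.94 and 19.4 FPKM in WT BAT, against 0.66, 0.90 and 0.71 FPKM in ctrl C2C12 day 7 (2.99 ± 0.24, adjusted p = 6.2e-06).

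The muscle promoters are shown because CAGCTG is an E-box that MYOD1 and myogenin are known to bind. These letters read the same on both strands and were searched in the 250 bases before the start. They were present in 12 of the 31 sarcomere genes with a promoter in the table (38.7%) and in 9 of the 18 excitation genes (50%), against 14.7% of all 27025 genes, 8.06% of the 62 oxidative phosphorylation genes and 12.5% of the 16 brown adipocyte genes. Lists outside muscle also held them above the share of all genes, with 26.3% of the 19 general adipocyte genes and 25% of the 16 ketone and branched-chain amino acid genes. Of the 12 myogenic regulators with a promoter in the table, 8.33% held them. The looser E-box CANNTG, which includes CAGCTG, was in 83.9% of the sarcomere genes and 69.3% of all genes. Many genes not specific to muscle hold the letters, and a match does not show that a factor binds. The lines give 150 bases before the start from RefSeq, GRCm38.p6, with CAGCTG in capitals: Chrna1 at chr2:73580339-73580488 on the minus strand, Chrng at chr1:87205661-87205810 on the plus strand, Mybph at chr1:134193298-134193447 on the plus strand and Mylpf at chr7:127211458-127211607 on the plus strand.
Chrna1: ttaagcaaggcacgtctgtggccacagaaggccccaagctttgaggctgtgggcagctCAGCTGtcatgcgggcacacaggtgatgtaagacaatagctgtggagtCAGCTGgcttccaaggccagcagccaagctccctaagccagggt
Chrng: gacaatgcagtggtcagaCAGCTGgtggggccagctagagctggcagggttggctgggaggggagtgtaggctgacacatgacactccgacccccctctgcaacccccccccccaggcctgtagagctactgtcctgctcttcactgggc
Mybph: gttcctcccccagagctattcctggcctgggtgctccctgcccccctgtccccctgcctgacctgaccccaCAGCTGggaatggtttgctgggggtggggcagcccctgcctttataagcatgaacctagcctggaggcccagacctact
Mylpf: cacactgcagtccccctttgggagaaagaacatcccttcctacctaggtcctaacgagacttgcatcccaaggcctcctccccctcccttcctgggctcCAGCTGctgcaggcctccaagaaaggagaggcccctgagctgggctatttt

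Cell cycle genes were lower in the tissue in 31 of 33 members, 22 of them by at least 4-fold, with a median of -2.71. Top2a, the topoisomerase of dividing cells, had 7.35, 8.60 and 3.23 FPKM in WT BAT, against 109.8, 94.3 and 98.7 FPKM in ctrl C2C12 day 7 (-3.87 ± 0.28, adjusted p = 3.4e-06). Rrm2, a ribonucleotide reductase subunit, had 3.42, 4.46 and 2.41 FPKM in WT BAT, against 69.2, 76.4 and 75.5 FPKM in ctrl C2C12 day 7 (-4.10 ± 0.18, adjusted p = 1.7e-07). Transcripts of dividing cells were therefore present in the day 7 cultures. Ccnd1, cyclin D1, overlapped (-0.03 ± 0.18, adjusted p = 0.88), and so did Cdk2 (-0.21 ± 0.12, adjusted p = 0.15), which was called without ctrl C2C12 day 7 replicate 1 (-0.29, adjusted p = 0.048).

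Matrix genes were lower in 22 of 31 members, 13 of them by at least 4-fold, higher in 6, 5 of them by at least 4-fold, and not called in 3, with a median of -1.88. Timp1, an inhibitor of matrix metalloproteinases, had 1.33, 2.21 and 0.98 FPKM in WT BAT, against 309.0, 402.6 and 422.1 FPKM in ctrl C2C12 day 7 (-7.26 ± 0.20, adjusted p = 2.2e-08). Fn1, fibronectin, had 29.0, 26.6 and 19.9 FPKM in WT BAT, against 956.5, 853.7 and 824.4 FPKM in ctrl C2C12 day 7 (-5.08 ± 0.16, adjusted p = 3.5e-08). Among the 6 higher members were the basement membrane collagens Col4a1 (2.56 ± 0.13), Col4a2 (1.71 ± 0.12) and Col15a1 (4.28 ± 0.25). Eln, elastin, had 58.5, 52.0 and 47.0 FPKM in WT BAT, against 0.05, 0 and 0 FPKM in ctrl C2C12 day 7 (5.71 ± 0.13, adjusted p = 9.2e-09). In WT BAT, 28 of the 31 matrix genes had their lowest value in replicate 3, against 39.5% of all tested genes.

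HOX genes, which record position along the body axis, divided by their number. Tested HOX genes of paralogue groups 1 to 5 were called higher in WT BAT in 8 of 8 cases, those of groups 9 to 13 lower in 7 of 7, and among the 4 of groups 6 to 8 there was 1 higher, 1 lower and 2 not called. Over all 19 tested HOX genes, 4 were at least 4-fold higher and 7 at least 4-fold lower. The grouping by number was chosen after the values had been seen. Hoxa4 had 35.6, 15.9 and 43.4 FPKM in WT BAT, against 0.24, 0.25 and 0.21 FPKM in ctrl C2C12 day 7 (4.61 ± 0.32, adjusted p = 2.5e-06). Hoxa10 had 0.04, 0.53 and 0.04 FPKM in WT BAT, against 24.2, 26.9 and 27.9 FPKM in ctrl C2C12 day 7 (-4.53 ± 0.17, adjusted p = 8.7e-08). Hoxc10 had 0, 0.19 and 0.01 FPKM in WT BAT, against 22.7, 25.3 and 20.8 FPKM in ctrl C2C12 day 7 (-4.49 ± 0.13, adjusted p = 2.6e-08).

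Summed over all listed genes of a class, groups 1 to 5 had 82.9, 60.2 and 83.3 FPKM in WT BAT, against 6.17, 9.31 and 8.71 FPKM in ctrl C2C12 day 7. Groups 9 to 13 had 2.56, 2.94 and 3.12 FPKM in WT BAT, against 89.3, 105 and 99.6 FPKM in ctrl C2C12 day 7. Of the 39 HOX genes listed, 20 did not pass the expression filter. The weakest calls were those of Hoxc4 (1.02 ± 0.31, adjusted p = 0.016), lost without WT BAT replicate 1 (0.068), WT BAT replicate 2 (0.053) or ctrl C2C12 day 7 replicate 1 (0.075) and in the earlier run alone (0.10), Hoxc5 (0.90 ± 0.23, adjusted p = 0.0062), lost in the earlier run alone (adjusted p = 0.092), and Hoxc6 (-0.85 ± 0.18, adjusted p = 0.0024), lost there too (adjusted p = 0.12).

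**Figure D4:**
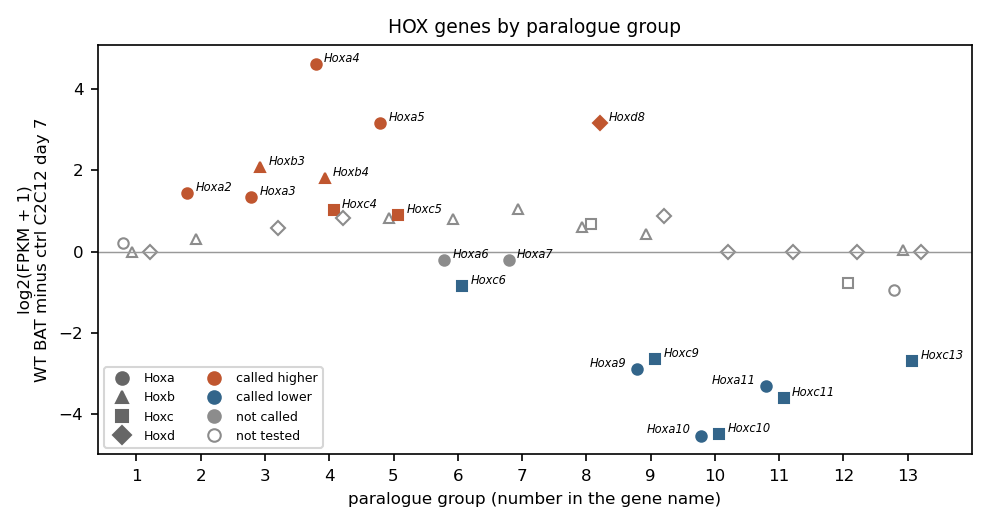
Each point is a HOX gene, with its paralogue group on the x axis and its difference in log2(FPKM + 1), WT BAT minus ctrl C2C12 day 7, on the y axis; filled points were tested and symbols mark the cluster. Tested points of groups 1 to 5 lie above 0, led by Hoxa4 at 4.61, and tested points of groups 9 to 13 lie below it, down to Hoxa10 at -4.53.

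A tissue holds cells that a culture does not, and their markers moved with the groups. All 14 endothelial markers were higher in WT BAT, each by at least 4-fold, and there they summed to 735 to 859 FPKM, against 4.34 to 6.35 FPKM in ctrl C2C12 day 7, with 4 of the 14 listed at 0 there. Cdh5, the cadherin of vessel walls, had 134.3, 119.4 and 115.7 FPKM in WT BAT, against 0.07, 0.04 and 0.04 FPKM in ctrl C2C12 day 7 (6.88 ± 0.12, adjusted p = 2.9e-09). Of 14 tested immune markers 13 were higher, 10 of them by at least 4-fold, Cd14 was lower, and the list summed to 137 to 186 FPKM in WT BAT, against 6.86 to 7.23 FPKM in ctrl C2C12 day 7. Lyz2, lysozyme of myeloid cells, had 35.2, 19.9 and 22.4 FPKM in WT BAT, against 0.38, 0.03 and 0.05 FPKM in ctrl C2C12 day 7 (4.51 ± 0.22, adjusted p = 3.5e-07).

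Erythroid markers also differed. Of 7 tested erythroid markers 6 were higher, each by at least 4-fold, and the list summed to 4251 to 5616 FPKM in WT BAT, against 42.8 to 50.2 FPKM in ctrl C2C12 day 7, where 4 members were at 0. Hba-a1 and Hba-a2, alpha globin genes that are near-identical copies whose reads the authors' counting could split, had 1610 to 2091 and 1203 to 1491 FPKM in WT BAT, against at most 1.05 FPKM in ctrl C2C12 day 7. The exception was Tmod1, a tropomodulin that muscle also makes (-4.78 ± 0.14, adjusted p = 2.3e-08). The part of vessels, immune cells and blood in the lists above was not tested.

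Other cell markers were mixed. Smooth muscle and pericyte markers summed to 211 to 267 FPKM in WT BAT, against 2034 to 2127 FPKM in ctrl C2C12 day 7, with 5 higher, 4 of them by at least 4-fold, 5 lower, 3 of them by at least 4-fold, and 2 not called. The control sums lay mostly in Acta2 and Des. Des, desmin, is also on the sarcomere list and had 825.4, 782.1 and 806.9 FPKM in ctrl C2C12 day 7. Kcnj8, listed at 0 in the cells, and Abcc9, at 0.25 to 0.32 FPKM there, were among the higher members. Acta2, smooth muscle actin, had 53.3, 42.5 and 49.1 FPKM in WT BAT, against 856.1, 927.3 and 945.1 FPKM in ctrl C2C12 day 7 (-4.21 ± 0.13, adjusted p = 3.4e-08), whereas Rgs5, a pericyte marker, had 27.9, 26.1 and 16.9 FPKM in WT BAT, against 0.02, 0.01 and 0.12 FPKM in ctrl C2C12 day 7 (4.52 ± 0.19, adjusted p = 1.4e-07). Progenitor and fibroblast markers summed to 437 to 585 FPKM in WT BAT, against 293 to 369.9 FPKM in ctrl C2C12 day 7, with 5 of 10 tested higher, 3 of them by at least 4-fold, 1 lower and 4 not called. The WT BAT sums lay mostly in Dlk1. Dlk1, preadipocyte factor, had 364.8, 333.9 and 292.6 FPKM in WT BAT and was listed at 0 in ctrl C2C12 day 7 (adjusted p = 1.4e-09), while Pdgfra was not called (0.20 ± 0.15, adjusted p = 0.25), though it was after quantile normalization (0.49, adjusted p = 0.014). Ly6a, the stem cell antigen SCA-1, had 24.3, 20.97 and 17.5 FPKM in WT BAT, against 172.3, 225.5 and 225.5 FPKM in ctrl C2C12 day 7 (-3.25 ± 0.16, adjusted p = 4.2e-07). Nerve and glia markers gave 5 higher, 2 of them by at least 4-fold, and 4 lower, 3 of them by at least 4-fold, of 9 tested, and summed to 50.5 to 75.3 FPKM in WT BAT, against 104 to 127 FPKM in ctrl C2C12 day 7. Of 9 epidermal markers 2 were tested, and the list summed to 2.53 to 3.15 FPKM in WT BAT, against 18 to 19.9 FPKM in ctrl C2C12 day 7.

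The 3 WT BAT libraries differed from each other in a small number of genes. Among 8185 tested genes with a mean of at least 5 FPKM in WT BAT, 10 were at least 4-fold above both other libraries in replicate 2 and 9 were that far below. In replicate 1 the counts were 2 above and 0 below, and in replicate 3 they were 1 above and 5 below, with the listed 0 of Fabp4 among the 5. The genes given next were chosen after their values had been seen. Pck1, which encodes a phosphoenolpyruvate carboxykinase, had 670.9, 135.9 and 683.3 FPKM in WT BAT, against 0.03, 0 and 0 FPKM in ctrl C2C12 day 7, and Nat8l, which makes N-acetylaspartate, had 41.1, 6.34 and 37.2 FPKM, against 0.01 FPKM or less. Klf15, a glucocorticoid-responsive factor, had 3.15, 28.4 and 2.87 FPKM in WT BAT, against 0.06, 0.09 and 0.08 FPKM in ctrl C2C12 day 7. Rgs2, a regulator of G-protein signalling, had 19.9, 337.0 and 13.4 FPKM in WT BAT, against 11.5, 15.2 and 13.4 FPKM in ctrl C2C12 day 7. Replicate 2 was thus low in Plin1, Pck1, G0s2 and Nat8l and high in Klf15 and Rgs2.

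General adipocyte genes had their lowest WT BAT value in replicate 2 for 20 of 27 tested members, against 39.3% of all tested genes, and fatty acid oxidation genes for 20 of 28. Citric acid cycle genes had theirs in replicate 3 for 18 of 23, against 39.5% of all tested genes. Without WT BAT replicate 2 or 3, every called member of the general adipocyte list kept its call. For its members not called, the shift reached the cells. G0s2 in WT BAT replicate 2 lay within the control range, and Fabp4 in WT BAT replicate 3, listed at 0, lay below it. For Klf15, the call (2.85 ± 0.68, adjusted p = 0.0046) was lost in the earlier run alone (2.88, adjusted p = 0.11). For Rgs2, no call was made (1.71, adjusted p = 0.16), while it passed with all 24 libraries in the fit (adjusted p = 0.024) and in 1 further alternative (adjusted p = 0.048).

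**Figure D5:**
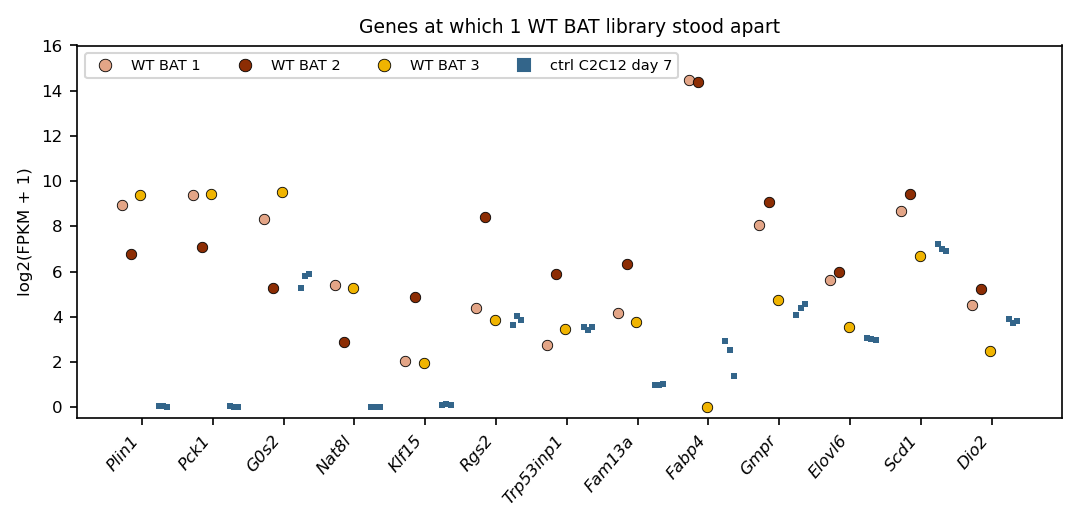
Each circle is a WT BAT library, coloured by replicate, and each small square a ctrl C2C12 day 7 library, in log2(FPKM + 1), for genes at which 1 WT BAT library stood apart. Replicate 2 is low in Plin1, Pck1, G0s2 and Nat8l and high in Klf15, Rgs2, Trp53inp1 and Fam13a; replicate 3 is low in Fabp4, Gmpr, Elovl6, Scd1 and Dio2.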

How the data were processed

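The values are FPKM per gene, which per the submitters' processing notes the authors computed using Cufflinks after TopHat alignment, with mm9 as the build. Their versions and gene models: not given in the sources used here. Libraries were made with a stranded kit from Trizol and column-purified RNA, per the labels' protocols; whether strand was used in counting is not given. Each table listed 37305 genes. Entries of 1 symbol with overlapping loci were summed (264 merged). GENCODE M21 gave the gene class. The test was limma 3.58.1 (R 4.3.3) on log2(FPKM + 1) (moderated two-sided test with a variance trend, 2 groups of 3 libraries) and tested on simulated data. The named genes are 11 fixed genes, the largest called members of each list, the 10 largest per direction, isoform family members, mitochondrial mRNAs and abundant members that missed the threshold. The largest members and the 10 largest were picked only among genes above a minimum mean FPKM with no overlap between the groups. Others are marked in the text. Members and lists were chosen with earlier results of these data known. Promoters come from a RefSeq table (GRCm38.p6), matched by symbol. The non-coding entry mmu-mir-703 took 0 to 14728 FPKM in WT BAT and 202192 to 298151 FPKM in ctrl C2C12 day 7, so sums over all genes differ; protein-coding sums were 540585 to 589976 in WT BAT and 511932 to 587625 in ctrl C2C12 day 7. A member of the lists is not reported here.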

Additional observations from a re-analysis of the deposited data

How the results depend on the processing

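No gene called both here and in an alternative had the opposite direction there; the direction of genes that lost their call was not counted. With a 2-fold minimum, 4059 genes were called, 1780 higher and 2279 lower. Leaving out each library in turn gave 8666 to 9367 calls, 3848 to 4186 higher and 4814 to 5181 lower. The replicate block gave 9165 calls; same-numbered libraries deviated together with correlations of -0.031, -0.036 and 0.056, so the numbers were not taken as pairs. Under that block Fabp4, G0s2, Scd1 and Rgs2 passed (adjusted p = 0.013, 0.019, 0.025 and 0.048). With run as a term 8287 genes were called, and 7287 in the libraries of the earlier run alone, where the 1 control library is assumed to vary like the tissue; the earlier-run fit and the one without mitochondrially encoded genes (9362 calls) were chosen after seeing the data. A pseudocount of 0.1 gave 9330 calls, no filter 11529 of 17839 genes, a mean filter 9108, all genes 10928, no variance trend 9387, all 24 libraries 9600, protein-coding sum rescaling 9361 and zeros as missing 9378. Depth is unknown, so no counting error could be given.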

Other observations

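Some genes were listed at 0 in all libraries of 1 group. In ctrl C2C12 day 7 these were 155 tested genes, 69 of which averaged at least 5 FPKM in WT BAT. Beside Ucp1 and the beta globin genes Hbb-b1 and Hbb-b2, they included genes of small vessels: Gpihbp1, which anchors lipoprotein lipase to capillary walls, had 223.5, 191.4 and 201.9 FPKM in WT BAT, and Car4, a membrane carbonic anhydrase, had 114.5, 91.5 and 105.4 FPKM. S100a9, a protein of neutrophils, had 104.9, 77.7 and 101.5 FPKM in WT BAT. Acss1, the mitochondrial acetyl-CoA synthetase, had 66.9, 97.4 and 46.9 FPKM, and Kcnk3, a potassium channel of brown adipocytes, had 82.3, 67.7 and 59.5 FPKM in WT BAT. In WT BAT, 33 tested genes were listed at 0, of which 11 were mitochondrially encoded. The others included Tubb3, a tubulin best known from neurons, with 15.2, 17.2 and 18.2 FPKM in ctrl C2C12 day 7, Ano5, a membrane protein linked to muscle disease, with 13.3, 10.9 and 11.1 FPKM, and Fgfbp1, with 7.75, 10.4 and 11.2 FPKM. These genes were chosen after their values had been seen.

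In ctrl C2C12 day 7, Fgfr4, a growth factor receptor of muscle precursors, had 3.25, 5.38 and 144 FPKM, and Rhod, a small GTPase, had 199.9, 25.1 and 28.1 FPKM, so single control libraries stood apart as well.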
